A study of Mus musculus with 35 samples.

Results

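The regions described here are 279 ATAC-seq peaks that were open in endothelial cells, hemogenic endothelium and pre-HSC I of the E10.5 mouse embryo and much less open in pre-HSC II. They were chosen from their own counts. A peak's CPM is its count per 1000000 counts of the library in all peaks, and the CPM of a group is the mean over its libraries. An autosomal peak was taken when the E10.5 endothelial (EC), hemogenic endothelial (HE) and pre-HSC I groups each had at least 15 CPM, when EC was under 2 times HE, and when pre-HSC II was at most 1/3 of pre-HSC I. The rule found 279 of 76018 peaks (0.367%). They were 2.46% of the 11349 autosomal peaks that met the first conditions, and the 11070 others that met them are called the other open peaks. The E10.5 libraries chose the members, so their E10.5 values are given as a description with no test, and the tests use the E8.5 and E9.5 libraries only.

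Blood stem cells of the embryo arise from endothelium. In the large arteries some endothelial cells become hemogenic, lose their endothelial program and leave the vessel wall as blood progenitors, by way of precursors that are known as pro-HSC, then pre-HSC I and then pre-HSC II, the last of which carries the leukocyte common antigen Ptprc. In ATAC-seq a transposase cuts and tags accessible DNA, so that the reads in a regulatory element rise with its accessibility, and elements used by one cell type are known to close as the next type is formed.

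The series holds 35 libraries, each from 1500 sorted cells of embryos that carry the 23GFP transgene, amplified in 13 PCR cycles. EC and HE were sampled on days E8.5, E9.5, E10.5, in 4 libraries per population and day. Cells called pro-HSC/HPC, for precursors of hematopoietic stem cells (HSC) and hematopoietic progenitor cells (HPC), were taken at E9.5 with 3 libraries, and pre-HSC I and pre-HSC II at E10.5 with 4 each. All groups share the transgene, which is known as a GFP reporter under an enhancer of Runx1, a factor needed for blood formation from endothelium. No treatment or other genotype is labelled. The labelled tissue is PAS+VU for the E8.5 and E9.5 samples and AGM+VU for the E10.5 samples. For E9.5 samples this tissue label also names E8.5, in conflict with the titles, from which the day was taken, and this bears on each comparison of E8.5 with E9.5. As labelled, day and tissue cannot be told apart between E9.5 and E10.5. Peaks are named by their mm9 positions. An mm9 annotation and sequence were not used here, so genes, defining markers of the sorted populations and motifs were not examined.

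Library totals ran from 456770 to 7415315 counts, and the pre-HSC II libraries were the shallowest, at 456770 to 1241216. Libraries 2 and 3 of pre-HSC I differed by less than sampling noise and were counted as 1 sample in every SD, n and test. The rule and the mean CPM of pre-HSC I per peak used both. E9.5 EC libraries 3 and 4 and HE library 4 had over 1000 CPM at 1 chromosome X peak. E8.5 EC libraries 1 and 2 and HE libraries 1 and 2 had under 2000000 counts. E10.5 HE libraries 1 and 4 put a smaller share of their counts into the members than the other HE libraries. Nothing in the labels says that pools of a group came from separate litters, and the p-values cover only the spread between libraries, which may be technical.

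At E10.5 the members held 1.28% ± 0.186 (SD, n = 4) of all counts in EC, 1.21% ± 0.346 (n = 4) in HE, 0.899% ± 0.160 (n = 3) in pre-HSC I and 0.218% ± 0.0482 (n = 4) in pre-HSC II. The drop in pre-HSC II is what the rule asked for. In pools of sorted cells, fewer cells with an open peak and less opening in each cell cannot be told apart. The HE libraries held 1.01%, 1.47%, 1.54% and 0.834% in the order of their replicate numbers. The other open peaks held 54.9% to 59.6% of the counts in pre-HSC II libraries and 62.9% to 68.3% in pre-HSC I libraries. Per peak, the median member had 36.0 CPM in EC, 34.1 CPM in HE, 25.2 CPM in pre-HSC I and 6.43 CPM in pre-HSC II, where the middle 50% of members ran from 4.53 to 9.14 CPM. By mean CPM, 276 of 279 members (98.9%) and 61.3% of the other open peaks were lower in pre-HSC II than in E9.5 pro-HSC/HPC, and the rule had chosen the members for low pre-HSC II values.

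**Figure D1:**
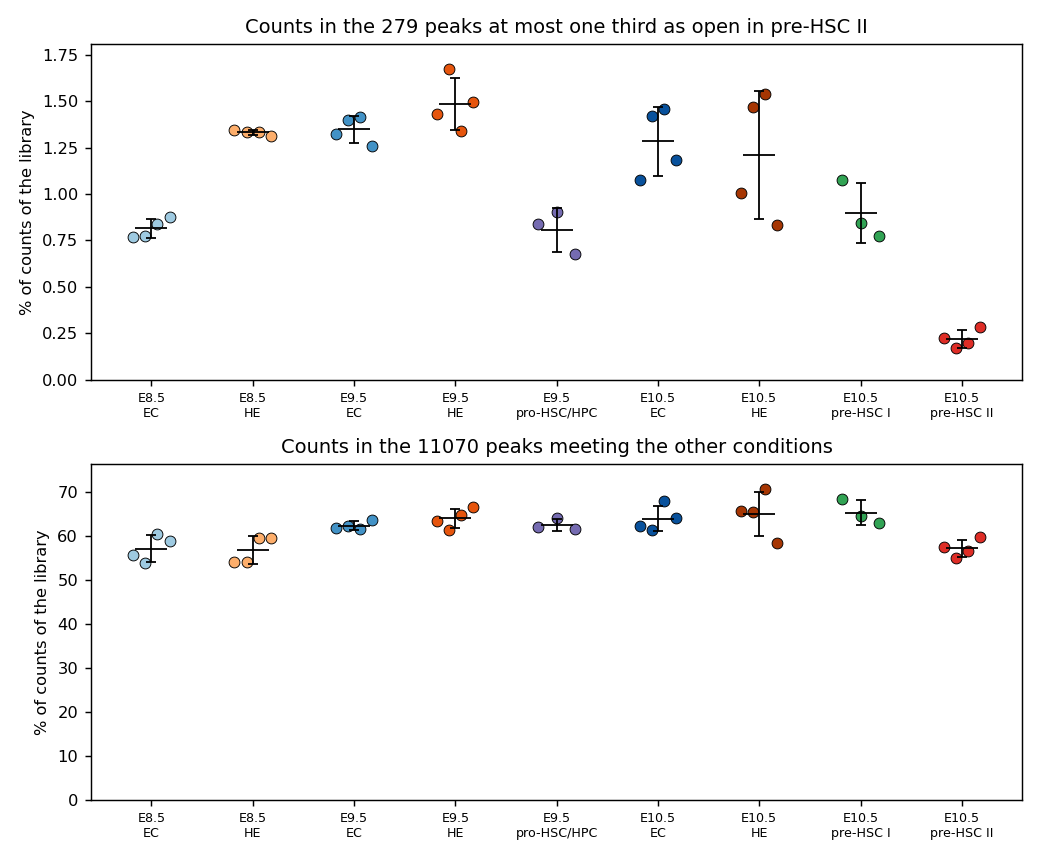
Share of each library's counts (%, vertical axis) in the 279 members (top) and in the 11070 other open peaks (bottom), by group. Points are libraries, with pre-HSC I libraries 2 and 3 as 1 point, and lines are the mean ± SD. The members' share was lowest in pre-HSC II (mean 0.218%) and was near 0.81% in both E8.5 EC and E9.5 pro-HSC/HPC, which the rule did not use.

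The rule itself requires no member to fall before pre-HSC II, but a working description of these peaks as endothelial regions that close in pre-HSC II alone does not hold in the E8.5 and E9.5 libraries, which the rule did not use. At E9.5, 273 of 279 were lower in pro-HSC/HPC than in HE, with a median ratio of 0.521 against 1.02 in the other open peaks. At E8.5 the median ratio of HE to EC was 1.76, against 0.948 in the other open peaks, and 20 of 279 members were lower in HE than in EC. Within the E10.5 groups that chose the members, and so as a description only, 244 of 279 were lower in pre-HSC I than in HE. The peaks are therefore called the pre-HSC II-depleted members below, by their rule.

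Among the members the highest E10.5 levels were at chr3:90249595-90251806. Its EC libraries had 185, 248, 301 and 221 CPM, its HE libraries 138, 217, 298 and 98.0 CPM, its pre-HSC I libraries 144, 174, 175 and 129 CPM and its pre-HSC II libraries 13.1, 44.9, 59.9 and 52.4 CPM. No pre-HSC II library reached the lowest library of the other 3 groups, and the rule, which read these libraries, favours such a gap. At E9.5 the pro-HSC/HPC libraries had 215, 183 and 193 CPM and the HE libraries 242, 260, 204 and 279 CPM. These groups overlapped, and their difference did not pass the test (log2 fold change -0.42, edgeR adjusted p 0.528).

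The next highest member, chr12:59368202-59370905, had 124 to 214 CPM in the pre-HSC I libraries and 87.6, 32.9, 28.5 and 44.3 CPM in pre-HSC II. The member at chr8:8993780-8995516 had 84.7 to 130 CPM in pre-HSC I and 17.5, 17.9, 15.7 and 29.0 CPM in pre-HSC II. The groups did not overlap at either peak, a gap that the rule favours. The other 5 of the 8 most open members were chr12:8392849-8394543, chr17:10582608-10584086, chr1:80214388-80215723, chr3:115411497-115413161 and chr8:106618748-106621517, with pre-HSC II to pre-HSC I ratios from 0.135 to 0.266.

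The lowest pre-HSC II to pre-HSC I ratio was at chr11:57344760-57345465. Its pre-HSC I libraries had 15.9, 17.1, 15.3 and 14.6 CPM, and its pre-HSC II libraries 0, 0, 0 and 1.61 CPM. The ratio of the mean CPM was 0.0256. With pre-HSC I libraries 2 and 3 as their mean, these are 2 counts in pre-HSC II against 84 in pre-HSC I, a ratio per total count of 0.0417 with an exact 95% counting interval of 0.00497 to 0.155, which covers counting error only. Such intervals treat every count as independent, yet of a library's counts of 10 or more and under 50, even numbers made up between 54.1% and 78.2%. At chr19:60535033-60536164 the 4 pre-HSC II libraries had 0, 0, 0 and 3.22 CPM and the pre-HSC I libraries 38.0, 13.3, 16.3 and 20.7 CPM. The other 6 of the 8 lowest ratios, at chr13:103436082-103437199, chr18:60820717-60821920, chr5:135015442-135016464, chr15:36419295-36420387, chr2:32763844-32764604 and chr8:8801089-8802593, ran from 0.0481 to 0.108. A member had 2 to 143 counts in the 4 pre-HSC II libraries together (median 21), and 12 members had under 10, so the ratio of a single member is known only roughly.

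Near the limit of 1/3, chr10:12529369-12531320 entered with a ratio of 0.333 and chr15:45934223-45935071 with 0.333, while chr8:86773085-86773967 and chr18:14006160-14007735 stayed out with 0.334 each. Near the limit of 15 CPM, chr14:35191440-35192420 and chr9:66963646-66964305 entered with a lowest group mean at 15 CPM, and chr8:25683547-25684169 and chr9:43047409-43048462 stayed out just under it. Near the limit of 2 times, chr1:167613802-167615550 and chr8:8819094-8820146 entered with EC to HE ratios of 2.00 and 1.98, and chr11:87993982-87995211 and chr2:71481704-71482947 stayed out with 2.01 and 2.02. Peaks on either side of a limit had nearly the same values, so the set has no natural edge there.

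To see how the choice itself shaped the drop, members were chosen again without each pre-HSC II library and then read in the library left out. Their median CPM there was 8.76, 5.98, 8.56 and 12.9 for libraries 1 to 4, and their median in pre-HSC I was 24.1 to 26.5 CPM. In the library left out, 93.3%, 95.9%, 93.5% and 93.1% of the chosen peaks were below pre-HSC I, but only 48.7%, 61.3%, 52.7% and 33.7% were at or below 1/3 of it. Of the other open peaks, 58.8% to 66.3% were below pre-HSC I in the library left out, and 1.95% to 10.2% were at or below 1/3 of it. The pre-HSC I values and the other 3 pre-HSC II libraries still chose the peaks, so these shares are a description. Leaving out pre-HSC II library 4 gave 404 members in place of 279, of which 251 were shared. Without the E10.5 HE libraries 1 and 4 the rule gave 317 peaks (278 shared), and with TMM-adjusted library sizes, which lower pre-HSC II against pre-HSC I, it gave 526 (269 shared).

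The E9.5 libraries allowed a test of the step from HE to pro-HSC/HPC with samples that the rule had not used. Members lost accessibility in this step: 79 of 279 (28.3%) were lower and 0 were higher in pro-HSC/HPC than in HE at an adjusted p under 0.05 (edgeR quasi-likelihood test, Benjamini-Hochberg adjustment over 67108 peaks). Of all peaks tested, 1.10% were lower and 0.644% higher. No member was higher at an unadjusted p under 0.05, and none was called higher by DESeq2, which called 142 lower. The DESeq2 share of all peaks is not given here. The members' median log2 fold change was -0.999 beside 0.02 for all peaks tested, and 275 of 279 were below 0. Of the other open peaks, whose E10.5 levels were higher (median 42.2 CPM in HE and in pre-HSC I), 1.26% were lower, with a median of -0.06. Without HE library 2 the count of lower members was 37, and without pro-HSC/HPC library 1, 2 or 3 it was 30, 45 or 26. Without the 3 E9.5 libraries that were high at the chromosome X peak it was 46. Here and below, no share of all peaks is given for settings with libraries left out. Such counts cannot tell a loss particular to the members from a loss at all peaks.

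The member with the smallest adjusted p in this comparison was chr10:74826194-74828242, 1 of 2 members within 100 kb of each other on chromosome 10. Its HE libraries had 114, 113, 94.0 and 107 CPM and its pro-HSC/HPC libraries 36.5, 30.0 and 41.4 CPM at E9.5. The groups did not overlap, and the log2 fold change was -1.68 ± 0.27 (SE, edgeR adjusted p 0.000292). At E10.5 it ranged from 86.2 to 131 CPM in HE and from 39.0 to 57.6 CPM in pre-HSC I, and pre-HSC II had 17.5, 4.49, 8.56 and 15.3 CPM in pre-HSC II.

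A larger fold was measured at chr18:38737780-38738630. Its HE libraries had 33.3, 38.9, 32.1 and 30.6 CPM and its pro-HSC/HPC libraries 5.77, 4.41 and 8.11 CPM (log2 fold change -2.60 ± 0.43, edgeR adjusted p 0.000514). Its pro-HSC/HPC level lay near that of E8.5 EC, at 8.02, 7.97, 3.00 and 2.87 CPM. The E8.5 HE libraries had 9.79, 9.98, 11.8 and 12.7 CPM, and the E9.5 EC libraries 38.3, 33.3, 39.3 and 32.1 CPM. The member at chr8:8801089-8802593 had 110, 148, 117 and 120 CPM in the HE libraries and 46.2, 43.2 and 26.8 CPM in pro-HSC/HPC (-1.73 ± 0.30, edgeR adjusted p 0.000692). All 3 calls held in every alternative that was run.

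By mean CPM, 16 members (5.74%) had fallen to 1/3 or less of HE in pro-HSC/HPC, 257 lay between 1/3 and HE, and 6 (2.15%) were at or above HE. Among the other open peaks these shares were 0.172% at 1/3 or less and 53.2% at or above. Read the other way, 45.7% of the 35 open peaks that were at most 1/3 of HE in pro-HSC/HPC were members, as were 4.74% of the 5421 in between and 0.102% of the 5893 at or above. Most members thus lay between HE and 1/3 of HE in pro-HSC/HPC. The median ratio of pre-HSC II to pro-HSC/HPC was 0.278 for the members, whose pre-HSC II values the rule had chosen, and 0.906 for the other open peaks.

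**Figure D2:**
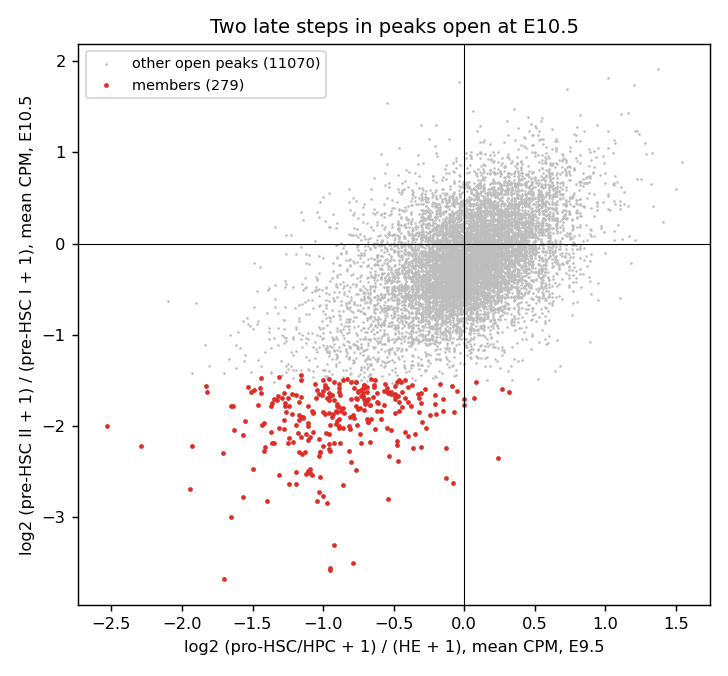
Change in the step from E9.5 HE to pro-HSC/HPC (horizontal axis, log2 of the ratio of mean CPM + 1) against the change from E10.5 pre-HSC I to pre-HSC II (vertical axis, same scale) for the 11349 open peaks. Members (red) were chosen by the vertical axis, and nearly all lay left of 0 on the horizontal axis, which shares no library with it.

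Over the 11349 open peaks the change from HE to pro-HSC/HPC and the change from pre-HSC I to pre-HSC II rose and fell together, with a Pearson r of 0.554 and a Spearman rho of 0.479 on log2 ratios with a pseudocount of 1 CPM. The axes share no library. The points are peaks and not independent replicates, so no p is given.

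Compared with E9.5 EC, pro-HSC/HPC was lower at 108 members (38.7%) and higher at 4, beside 6.80% and 5.05% of all peaks tested. The median was -0.84 for the members and 0.13 for all peaks. At chr9:8558439-8559379 the EC libraries had 60.1, 58.9, 102 and 57.9 CPM, HE had 25.1, 35.0, 29.4 and 24.0 CPM, and pro-HSC/HPC had 11.6, 10.6 and 11.4 CPM. Here accessibility was graded over the 3 populations with no overlap between them. The difference between pro-HSC/HPC and EC was -2.73 ± 0.37 on the log2 scale (edgeR adjusted p 2.29e-07).

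The pattern recurred at chr2:52327014-52328128, with 66.5, 52.6, 102 and 68.9 CPM in EC, 32.5, 28.2, 25.6 and 27.5 CPM in HE and 14.7, 16.8 and 13.0 CPM in pro-HSC/HPC (-2.37 ± 0.32 against EC, edgeR adjusted p 3.09e-07). At chr7:152210545-152212249 the EC libraries had 74.1, 85.6, 70.0 and 69.8 CPM and pro-HSC/HPC 16.5, 14.1 and 23.5 CPM (-2.22 ± 0.31, edgeR adjusted p 4.91e-07). These 3 calls held in every alternative. The calls of the 3 higher members with the smallest adjusted p, chr18:60820717-60821920, chr13:89019316-89020241 and chr1:186099444-186100276, were lost in 9, 6 and 7 of 17 alternatives, among them when EC library 1 or 2 or pro-HSC/HPC library 1 or 2 was left out.

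EC and HE themselves differed less at E9.5. In HE 35 members (12.5%) were higher and 4 (1.43%) lower than in EC, beside 1.36% and 1.21% of all peaks tested, and the members' median of 0.13 lay near the 0.05 of all peaks. The rule had let in peaks higher in HE than in EC at E10.5 and kept out those 2 times or more higher in EC. The count of called members was 21 without EC library 1, 20 without EC library 4, 20 without HE library 2 and 22 without HE library 4. Without the 3 libraries high at the chromosome X peak edgeR called 0, with 36 higher and 10 lower at an unadjusted p under 0.05. DESeq2 on all libraries called 42 higher and 8 lower, with no share of all peaks given here.

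Among the HE-high members, chr7:129859368-129860960 had 19.5, 22.2, 10.2 and 13.2 CPM in E9.5 EC and 61.8, 70.8, 62.0 and 95.6 CPM in HE (log2 fold change 2.04 ± 0.32, edgeR adjusted p 5.98e-05). The member at chr18:60820717-60821920 had 19.8, 23.5, 18.8 and 17.0 CPM in EC and 63.8, 80.3, 73.9 and 84.1 CPM in HE (1.88 ± 0.30, edgeR adjusted p 9.29e-05). At chr13:84710512-84711673 EC had 14.0, 18.3, 18.8 and 17.6 CPM and HE 58.8, 63.0, 72.3 and 80.0 CPM (1.97 ± 0.33, edgeR adjusted p 0.000216). Each of the 3, picked by this test, was separated without overlap and was higher in HE than in EC at E8.5 as well. Without the 3 libraries named above their adjusted p values were 0.135, 0.0941 and 0.0904, the highest over 18 alternatives, in which the lowest were 1.66e-09, 5.86e-10 and 3.69e-10. The 3 lower members with the smallest adjusted p were chr2:52327014-52328128 (-1.35), chr9:8558439-8559379 (-1.30) and chr4:94820175-94821402 (-1.12). Their calls were lost under the same setting too.

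The 35 HE-high members, chosen by that call, had E9.5 medians of 17.7 CPM for EC and 50.7 CPM for HE, and that in pro-HSC/HPC was 26.7 CPM. The E10.5 medians were 26.2 CPM in EC, 54.4 CPM in HE, 31.1 CPM in pre-HSC I and 6.95 CPM in pre-HSC II. The 240 members called in neither direction had medians of 40.4 CPM (EC) and 41.8 CPM (HE) at E9.5. These E9.5 EC and HE medians restate the calls, which were 0 without the 3 libraries named above, and the low pre-HSC II level is required by the rule.

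**Figure D3:**
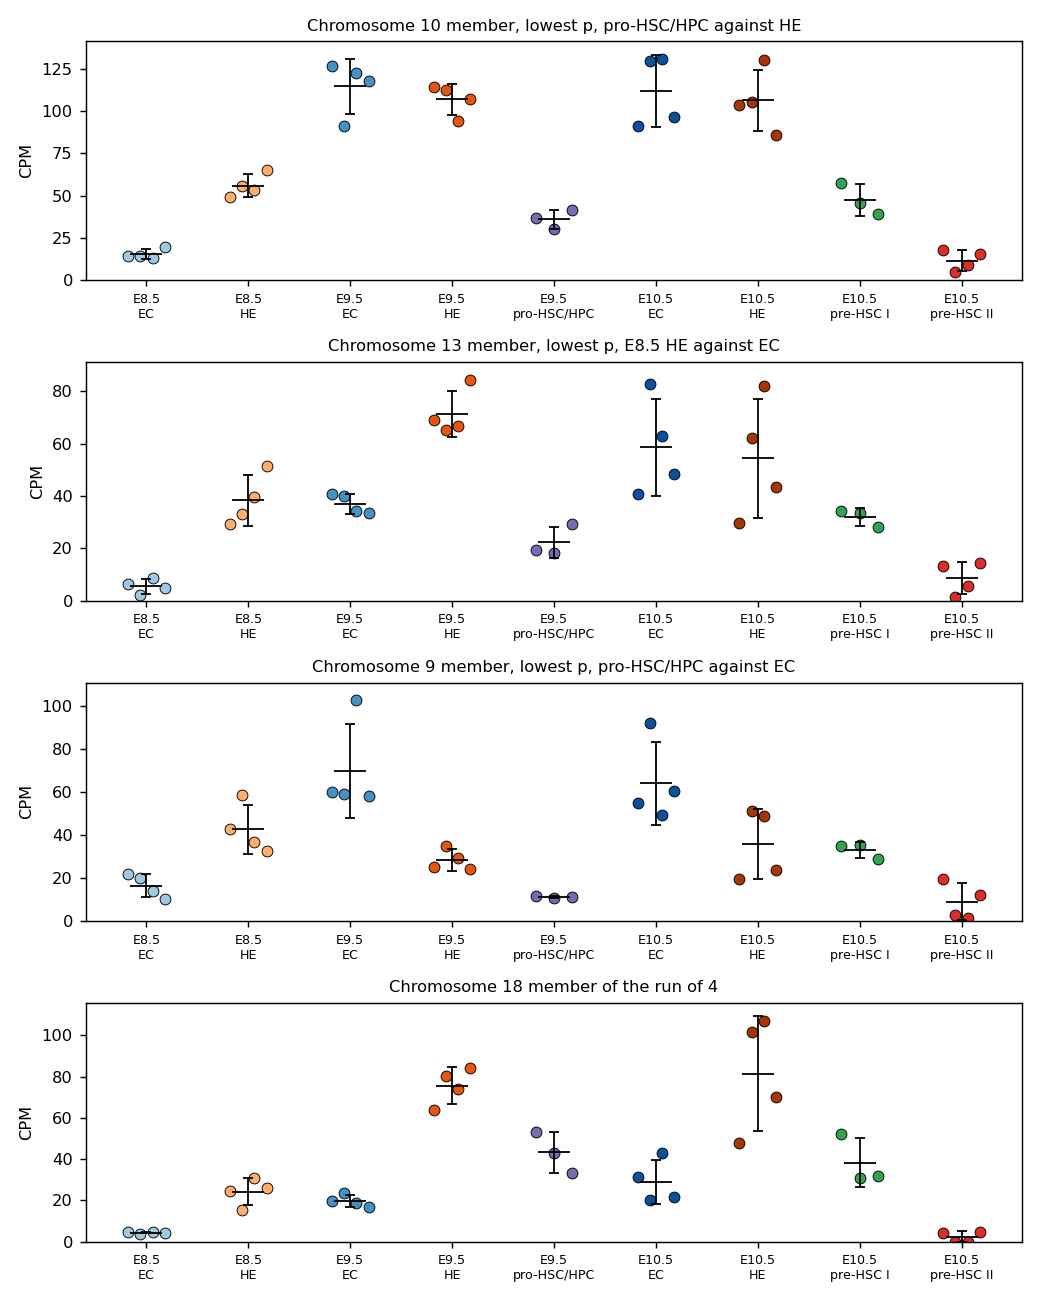
CPM (vertical axis) of 4 members in every library, by group, with the mean ± SD and with pre-HSC I libraries 2 and 3 as 1 point: from the top, those on chromosomes 10, 13, 9 and 18 described in the text. The first fell from HE to pro-HSC/HPC at E9.5, the second was under 10 CPM in E8.5 EC, the third was graded from EC to HE to pro-HSC/HPC, and the last was highest in HE.

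At E8.5 the members were an HE-high set. In HE 87 (31.2%) were higher than in EC and 0 lower, beside 1.31% and 0.130% of all peaks tested, and 265 of 279 were above 0. None was lower at an unadjusted p under 0.05 or by DESeq2. The median log2 fold change was 0.89 for members, 0.02 for all peaks and 0.03 for the other open peaks, of which 1.63% were higher and 0.117% lower. The rule had kept out peaks 2 times or more higher in EC than in HE at E10.5, and the other open peaks met that limit too. As a share of counts, the members held 0.814% ± 0.0527 (n = 4) in EC, from 0.771% to 0.877%, and 1.33% ± 0.0141 (n = 4) in HE, from 1.31% to 1.34%, with no overlap. Without EC library 1, 2 or 3 the count was 54, 54 or 52, and without HE library 3 it was 57. With no share of all peaks given for these settings, whether other peaks lost calls alike is not shown. Without the 4 E8.5 libraries under 2000000 counts, which leaves 2 in each group, it was 6, and the members' median stayed between 0.74 and 0.95 over all alternatives.

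The smallest adjusted p was at chr13:41440298-41441870, with 6.41, 1.99, 8.63 and 4.66 CPM in E8.5 EC and 29.4, 33.3, 39.4 and 51.6 CPM in E8.5 HE (log2 fold change 2.84 ± 0.36, edgeR adjusted p 1.50e-06). At chr14:104284041-104285244 EC had 24.1, 13.9, 7.5 and 21.5 CPM and HE 83.8, 89.8, 78.0 and 67.8 CPM (2.37 ± 0.31, edgeR adjusted p 1.95e-06). The chromosome 10 member chr10:74826194-74828242 had 14.4, 13.9, 12.8 and 19.4 CPM in EC and 49, 55.9, 53.6 and 65.2 CPM in HE (1.97 ± 0.26, edgeR adjusted p 1.95e-06). None of these groups overlapped at these peaks, which were picked by this test, and the 3 calls held in every alternative.

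Of the 79 members lower in pro-HSC/HPC than HE at E9.5 and the 87 higher in HE than EC at E8.5, which come from separate libraries, 35 were in both. That is 44.3% of the first list and 40.2% of the second, and 148 members were in neither. Of all members 31.2% were higher in HE at E8.5, as were 52 (26.0%) of the 200 outside the first list. The overlap over all peaks is not given here, and the difference was not tested.

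Between E8.5 and E9.5 the members opened in EC. Of 279, 149 (53.4%) were higher and 0 lower in E9.5 EC than in E8.5 EC, beside 6.49% and 4.59% of all peaks tested. At an unadjusted p under 0.05 there was 1 lower member, and DESeq2 called 1 lower. The median was 0.97 for the members, -0.07 for all peaks and 0.26 for the other open peaks, of which 13.5% were higher and 3.65% lower. The rule asked for at least 15 CPM in E10.5 EC, which keeps out peaks that had closed in EC by then. The low count of lower members is thus partly set by the choice. The other open peaks met the same limit, and all peaks tested did not have to. The EC share of counts in members rose from 0.771% to 0.877% at E8.5 to 1.26% to 1.41% at E9.5. Without the shallow E8.5 libraries 54 members were called.

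The member at chr10:74826194-74828242 led here too. Its EC libraries went from 12.8 to 19.4 CPM at E8.5 to 127, 91.0, 123 and 118 CPM at E9.5 (log2 fold change 3.11 ± 0.26, edgeR adjusted p 5.25e-13). Its neighbour chr10:74913761-74914653 had 4.81, 9.96, 7.5 and 10.0 CPM at E8.5 and 64.7, 62.1, 53.0 and 44.7 CPM at E9.5 (2.99 ± 0.34, edgeR adjusted p 1.59e-08). At chr15:25718931-25719837 EC had 4.81, 0, 4.88 and 2.87 CPM and then 36.2, 47.2, 25.6 and 25.2 CPM (3.51 ± 0.41, edgeR adjusted p 1.74e-08). The 3 calls held in every alternative, and the days did not overlap at any of these peaks, which were picked by this test.

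By their mean E8.5 EC level, 183 members (65.6%) had 15 CPM or more, 82 had 5 to 15 CPM and 14 (5.02%) had under 5 CPM. Of the other open peaks 95.5% had 15 CPM or more. The 14 lowest had medians of 3.71, 12.6 and 27.9 CPM in EC at E8.5, E9.5 and then E10.5, and of 11.8, 24.9 and 30.7 CPM in HE on the same days. Their pro-HSC/HPC median was 12.1 CPM and their pre-HSC II median 5.05 CPM. Their low E8.5 EC level, and their E10.5 levels, were set by the choice.

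In HE the same days differed far less. At E9.5, 20 members (7.17%) were higher and 2 lower than at E8.5, beside 0.893% and 1.24% of all peaks tested, and the median of 0.27 was near the 0.23 of the other open peaks. Without the shallow E8.5 libraries 3 members were called, and without the libraries high at the chromosome X peak 12. The smallest adjusted p was at chr1:9568432-9569022, with 3.67, 1.33, 0.530 and 1.22 CPM at E8.5 and 10.1, 10.8, 13.1 and 17.0 CPM at E9.5 (3.23 ± 0.55, edgeR adjusted p 0.000255). The next were chr18:60820717-60821920 (1.68 ± 0.30, edgeR adjusted p 0.000415) and chr16:18703793-18705935 (1.57 ± 0.30, edgeR adjusted p 0.00103). The first of these calls was lost when every library was thinned to 456770 counts (log2 fold change 2.52, edgeR adjusted p 0.0908). The other 2 were lost without the shallow E8.5 libraries (1.46 and 1.38, edgeR adjusted p 0.0965 and 0.106). Over 19 alternatives the log2 fold changes ran from 2.52 to 3.85, from 1.46 to 1.86 and from 1.38 to 1.69, and the smallest adjusted p values were 5.28e-06, 3.71e-07 and 6.62e-06. The lower members were chr2:52327014-52328128 and chr18:71806080-71807398, whose calls were lost in 4 and 6 of 19 alternatives, among them without E8.5 HE library 1 or 2.

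**Figure D4:**
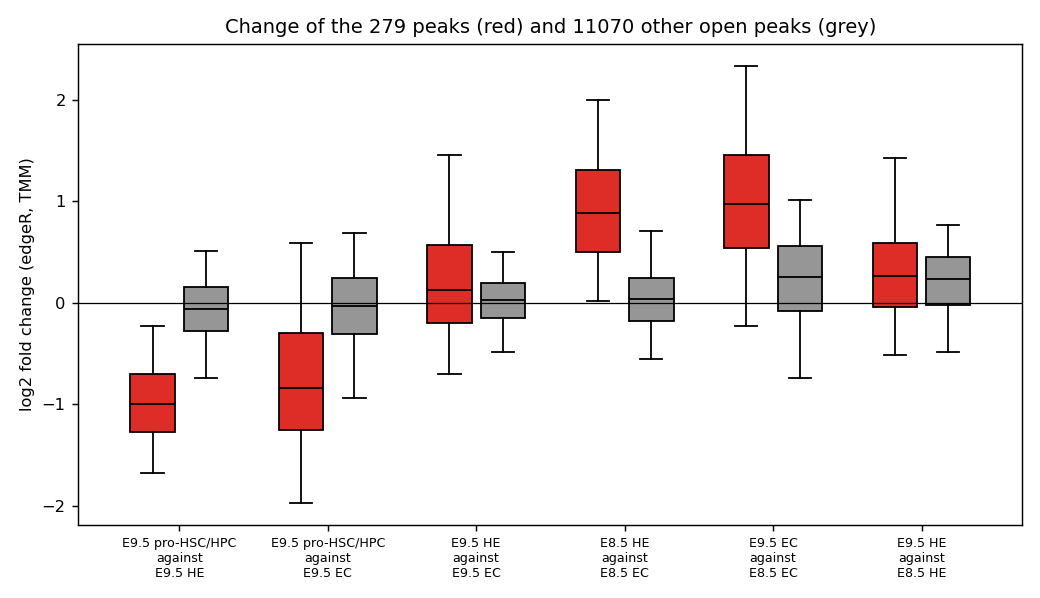
Log2 fold change (vertical axis, edgeR with TMM scaling) of the 279 members (red) and the 11070 other open peaks (grey) in 6 comparisons. Boxes span the middle 50% with the median, and whiskers run from the 5th to the 95th percentile. The members' medians were -0.999 and -0.84 for pro-HSC/HPC against HE and EC, 0.89 for HE against EC at E8.5 and 0.97 for EC between the days.

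The change of the HE to EC difference between E8.5 and E9.5 was tested as an interaction in the same fit, a test added after the E8.5 and E9.5 values had been seen. It was lower at E9.5 at 26 members (9.32%) and higher at 1, beside 1.21% and 0.282% of all peaks tested, with a median of -0.75. At chr1:51827041-51827928 EC had 6.41, 11.9, 13.5 and 4.30 CPM and HE 28.1, 51.9, 28.5 and 34.4 CPM at E8.5. At E9.5 EC had 51.1, 52.9, 73.5 and 58.5 CPM and HE 33.2, 32.7, 38.0 and 26.4 CPM. The order of the populations turned round between the days at this peak (interaction -2.95 ± 0.49, edgeR adjusted p 0.000441).

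The same held at chr9:8558439-8559379, where E8.5 EC had 21.6, 19.9, 13.9 and 10.0 CPM and E8.5 HE 42.8, 58.5, 36.9 and 32.4 CPM (interaction -2.84 ± 0.44, edgeR adjusted p 0.000366). At chr10:74826194-74828242 the interaction was -2.10 ± 0.34 (edgeR adjusted p 0.00043). The call at chr9:8558439-8559379 held in all 27 alternatives, while the other 2 were lost without the shallow E8.5 libraries. The single higher member, chr16:18703793-18705935, lost its call in 18 of 27 alternatives, among them when any 1 E8.5 HE or E9.5 EC library was left out. The count of called members was 13 without E8.5 EC library 1, 12 without E8.5 EC library 2, 17 without E8.5 HE library 2 and 17 without E9.5 HE library 3. It was 1 without the shallow E8.5 libraries and 4 without the libraries high at the chromosome X peak.

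The members shared features that the rule had not used. Their median width was 1144 bp, against 1401 bp in the other open peaks and 495 bp in all autosomal peaks, and 8 (2.87%) were 2 kb or wider, against 18.7% of the other open peaks. The nearest peak of any kind lay at a median distance of 2869 bp, against 4124 bp for the other open peaks, and under 10 kb for 83.9% of members and 70.6% of the others. The members were thus narrower than the other open peaks, which were not matched to them for level, and stood closer to other peaks. Among the autosomes, chromosome 18 had the highest share of open peaks that were members (4.80%, 17 members). Chromosome 6 had the lowest (0.861%, 5 members), beside 2.46% over all autosomes. These chromosomes were picked as the extremes, and 4 of the 17 members stood in 1 run, described below. The spread between chromosomes was not tested, so it is not given as a feature of the members.

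A number of members stood close together. Of the 279, 41 (14.7%) had another member under 100 kb away, and 9 had one under 10 kb away. No share for sets of other open peaks of the same size is set beside these, so they do not mark the members out. They formed 18 runs, of which 14 had 2 members, 3 had 3 and 1 had 4. The run of 4, at chr18:60808548-60897948, spanned 89.4 kb and held chr18:60808548-60809081, chr18:60811040-60812503, chr18:60820717-60821920 and chr18:60896238-60897948. Their pre-HSC II to pre-HSC I ratios were 0.241, 0.209, 0.0632 and 0.289. All 4 had a log2 fold change below 0 in pro-HSC/HPC against HE, from -1.09 to -0.75, and none of them passed the test there. In HE against EC at E8.5, chr18:60820717-60821920 (2.58, edgeR adjusted p 3.01e-05) and chr18:60896238-60897948 (1.64, edgeR adjusted p 0.00349) were higher.

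Within the run of 3 at chr8:8801089-8831702, chr8:8801089-8802593 and chr8:8819094-8820146 were lower in pro-HSC/HPC than in HE at E9.5 and higher in HE than in EC at E8.5. The last of the run, chr8:8830381-8831702, passed neither test, with log2 fold changes of -0.56 and 0.88. In the run of 3 at chr11:7098354-7138483, chr11:7137552-7138483 was lower in pro-HSC/HPC (-1.29, edgeR adjusted p 0.0178), and chr11:7098354-7099410 (-1.25, 0.0516) and chr11:7134800-7135881 (-0.99, 0.0577) did not pass. All 3 were higher in HE than in EC at E8.5, by log2 fold changes from 0.95 to 1.43.

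Peaks beside the members were examined in the same comparison. The 141 peaks under 10 kb from a member that were not members themselves, and averaged at least 15 CPM over the 3 E9.5 groups, had a median of -0.51 in pro-HSC/HPC against HE, with 14 (9.93%) lower. All 14127 autosomal non-members of that level had a median of -0.11, with 2.93% lower. This difference was not tested.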

How the data were processed

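Chromatin accessibility was measured by ATAC-seq in 35 libraries of 9 groups, taken from the sample titles. The values that the authors deposited are raw counts of reads in 76018 shared peaks, without normalization. The submitters' processing notes name build mm9 and, in no stated order, DiffBind 1.14.6, MACS2 2.0.1, Bowtie 1.0.0, Trim Galore 0.3.1, bedtools 2.17.0, deepTools and SAMtools. Their roles, the read filters, any shift of reads to the transposase's position and the first base of the coordinates (0 or 1) are not given in the sources used here.

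Members and lists were chosen with earlier results of these data known. CPM values use the total count in peaks. TMM scaling moves pre-HSC II against pre-HSC I by -0.36 on the log2 scale relative to column sums. For tests, filterByExpr removed 8910 peaks and kept 67108, and all 279 members passed. Counts were TMM-scaled and fitted in edgeR 4.0.16 (glmQLFit, glmQLFTest, two-sided) over 34 samples with a mean per group (25 residual degrees of freedom, common dispersion 0.147). Calls use a Benjamini-Hochberg adjusted p under 0.05, and an SE is the log2 fold change divided by the square root of F. The fit was also run on simulated data, but no outcome is given here, so that run adds no support to the calls. Regions were named by rule: the 8 highest at E10.5, the 8 lowest pre-HSC II to pre-HSC I ratios, the 3 smallest adjusted p values per comparison and direction, the 2 nearest each limit, and the 3 runs with most members. For the interaction, the same rule was applied later. Peaks named for a small adjusted p were picked by the test, so groups that do not overlap at them add no support. Alternatives were DESeq2 1.42.0, RLE, total-count and cyclic loess scaling, no count filter, fits of the compared groups alone with and without a replicate block, libraries thinned to 456770 counts, and libraries left out. The scripts ran in R 4.3.3 with limma 3.58.1 and in Python 3.11.15 with matplotlib 3.10.9, scipy 1.17.1, pandas 2.3.3 and numpy 2.4.6. Gene lists, markers and motifs planned for these regions were not examined, since no mm9 annotation or sequence was used here.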

Additional observations from a re-analysis of the deposited data

Results flagged for a closer look

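Dixon's test was run in 154 groups of 4 libraries, which cover only a part of the named members. In 9 of them 1 library lay far from the others, and chance flags about 1 in 20 groups. The flags below are therefore not a full list for the named members. At chr9:8558439-8559379 E9.5 EC library 3 stood high at 102 CPM (the other 3 were 57.9 to 60.1 CPM). At chr13:84710512-84711673 E10.5 HE library 4 stood low at 47.2 CPM, and at chr10:74913761-74914653 E9.5 HE library 3 stood low at 38.0 CPM. At chr16:18703793-18705935 E8.5 HE library 1 stood low at 9.79 CPM and E10.5 EC library 1 high at 47.2 CPM. Pre-HSC II library 4, the deepest of its group, stood high at chr8:8993780-8995516 (29.0 CPM), chr11:57344760-57345465 (1.61 CPM) and chr19:60535033-60536164 (3.22 CPM), the last 2 of which had no count in the other 3 libraries. At chr19:60535033-60536164 E10.5 EC library 2 stood high at 21.8 CPM.

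The difference between HE and EC changed from E8.5 to E9.5 at 27 members by the interaction test, 26 of them toward EC. Of all peaks tested, 1.21% changed toward EC and 0.282% the other way.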

How the results depend on the processing

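Of 575 settings for members named from a test, 513 kept the call and 62 lost it, and none changed sign. Counts of called members given in both directions together changed as follows. No share of all peaks called is given for these settings, here or above, so the counts describe the members only. In pro-HSC/HPC against HE (79), DESeq2 gave 142, a fit of the compared groups alone 188, the same with a replicate block 183, thinning 31, and leaving out the libraries high at the chromosome X peak 46, with 26 to 74 when leaving out 1 library. In pro-HSC/HPC against EC (112), leaving out 1 library gave 81 to 112. In HE against EC at E9.5 (39) the compared groups alone gave 99, the replicate block 111, thinning 23, the chromosome X setting 0 and leaving out 1 library 20 to 31. In HE against EC at E8.5 (87) the compared groups alone gave 140, the replicate block 153, thinning 52, leaving out the 4 shallow E8.5 libraries 6 and leaving out 1 library 52 to 72. In EC between the days (149) thinning gave 98, the shallow setting 54 and leaving out 1 library 123 to 153. In HE between the days (22) the compared groups alone gave 86, the replicate block 95, the shallow setting 3, the chromosome X setting 12 and leaving out 1 library 15 to 22. For the interaction (27) DESeq2 gave 70, RLE scaling 41, the compared groups alone 97, the replicate block 97, the shallow setting 1, the chromosome X setting 4 and leaving out 1 library 12 to 25. The cause of these changes was not tested, except that thinning leaves fewer counts and the settings without libraries fewer samples. The members' median log2 fold change kept its sign in every setting run except HE against EC at E9.5, where it was -0.01 without HE replicate 2 and up to 0.16 in the others. The chromosome X, shallow and interaction settings were chosen after seeing the data.

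The number of members was 279 by column sums, 526 with TMM-adjusted library sizes (269 shared), 890 at a limit of 1/2 and 135 at 1/4, and 254 to 404 when leaving out 1 library. With every library thinned to 456770 counts it was 318, and only 215 of the 279 (77.1%) were among them. With pre-HSC I libraries 2 and 3 as 1 it was 303 (260 shared). Replicate numbers were not used to pair samples in the main fit, since not every same-numbered pair correlated above 0.1. That limit cannot show the samples to be unpaired. For HE against EC, same-numbered pairs ran from 0.0930 to 0.177 at E8.5 and from 0.0622 to 0.261 at E9.5. Differently numbered pairs ran from -0.164 to 0.199 and from -0.271 to 0.162. At E8.5, EC libraries 1 and 2 correlated positively with HE libraries 1 and 2 and negatively with HE libraries 3 and 4. EC libraries 3 and 4 did the reverse, and the main fit had no term for this. Between 0 and 3 of the 3 or 4 pairs per comparison correlated best with their own number. Depth limits the members' pre-HSC II values: in the shallowest library, with 456770 counts, a member had 0 to 40 counts (median 2).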
